A study of Mus musculus with 13 samples.

Results

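Homologous recombination repairs a DNA double-strand break by copying the intact sister or homologous chromosome, and the Fanconi anaemia pathway unhooks crosslinks between the strands of DNA and hands the resulting breaks to the same machinery. In outline, the MRE11 complex and its nucleases trim the broken ends, RPA coats the single strands, BRCA2 and its partners prepare them for the search for the matching sequence, and helicases and nucleases take the joined molecules apart again. Oocytes make and repair breaks in this way during meiotic prophase. Soon after birth the oocytes of mice become arrested late in this prophase, and they carry the p53 family member TAp63 as their sensor of lasting breaks.

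The 40 genes described here are a list of homologous recombination and Fanconi genes chosen by name, and all 40 were found among the 49585 genes summed from the files. They comprise 6 genes of strand-break sensing and resection, 3 of single-strand binding, 4 BRCA mediators, 5 strand-exchange paralogs, 3 of strand annealing and exchange, 4 of dissolution and helicases, 5 resolvases and nucleases, 7 of the Fanconi core complex with its anchor, and 3 of the Fanconi ID complex with its helicase. In short, none of the 40 genes passed the test in any of 9 comparisons of time, dose or generation, with edgeR, DESeq2 or limma-voom under the same rule of fold and adjusted p, and for 37 of 40 the 95% interval of the change from the early to the 4 and 6 h libraries excluded a doubling and a halving. In the edgeR comparisons of single times, at 0.2 Gy and between doses, few or none of 12 well-known p53 target genes were called.

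The study followed the RNA of oocytes from CD-1 mice at P5 after gamma irradiation of the cultured ovaries with 0.5 or 0.2 Gy, in 13 libraries. At 0.5 Gy there were 2 libraries each at 0, 1 and 4 h, 1 of the first and 1 of the second generation, and 1 library each at 2.5 and 6 h, both of the second generation. At 0.2 Gy each of the same 5 times had 1 library, all of the third generation. A difference between the doses, in level or in change with time, thus cannot be told apart from one between the third generation and the others. At 0.5 Gy the 2.5 and 6 h libraries are of the second generation only, so that time and generation are partly mixed there. The mice were otherwise untreated and carried no named allele, the 0 h libraries stand in the study for the state before irradiation, the labels do not say what a generation is, and every library came from pooled ovaries, so that p-values measure only the spread between these libraries. None of the 13 is an unirradiated library of a later time, so that irradiation and time in culture cannot be told apart.

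Each library held 15709549 to 30430104 estimated reads. Oocyte markers were present in every library, with the secreted factor Gdf9 at 268 to 652 CPM (estimated reads scaled to a common library size) and the germ cell helicase Ddx4 at 73.4 to 147 CPM. Markers of other ovarian cells were present too, with the granulosa gene Inha at 573 to 1537 CPM, the collagen gene Col1a2 at 447 to 765 CPM and the division marker Mki67 at 106 to 214 CPM. Inha was the highest of 15 granulosa genes. These summed to 1421 to 2484 CPM over the libraries, against 5377 to 7827 CPM for 16 oocyte genes and 1942 to 3778 CPM for 11 genes of stroma and endothelium. Such sums depend on the genes listed. The libraries are thus mixtures, the part of other cells in the values of the 40 genes was not tested, and fewer cells of a type cannot be told apart from less RNA per cell. Of 12 well-known p53 target genes taken as a reference, all 12 rose from the early to the late libraries of 0.5 Gy. The cyclin-dependent kinase inhibitor Cdkn1a, for example, rose by 3.32 ± 0.36 (SE) on the log2 scale. Of the 12, 8 passed the rule of fold and adjusted p, against 0.151% of all genes tested. Their median log2 change was 2.21, and they were chosen with earlier results of these data known. The 12 genes thus show only that changes of such size could be called in that comparison, not that smaller ones could.

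As known p53 targets can carry p53 family elements near their start, the promoters of the 40 genes were searched for letters of the same kind, and the sequences are shown here before the values. Promoter windows from RefSeq (GRCm38.p6, 250 bases before to 50 after the start) were matched for 30 of the 40 genes. A gene with several starts could have several windows and was counted once if any held a match. None of the 30 genes had a full p53 family element, made of a pair of decamers, which 0.0740% of all 27025 genes with a window had on either strand. Of the 12 p53 target genes above, 9 had a window, and of these only Cdkn1a held a full element. Its absence thus does not set the 30 genes apart from most of these targets. The stretch of Cdkn1a at chr17:29090898-29090945 (plus strand) is shown for comparison, with the element in capitals.
Cdkn1a: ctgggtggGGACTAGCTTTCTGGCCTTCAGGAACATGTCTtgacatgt

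Of the 30 genes, 3 held at least a single decamer of a p53 family element, against 9.55% of all genes with a window and 5 of the 9 p53 targets. The 3 were the helicase gene Brip1 at chr11:86201380-86201405, Fanca at chr8:123318623-123318648 and Fancg at chr4:43010449-43010474, all on the minus strand. They are printed on the strand of the gene, 5′ to 3′, with the decamer in capitals.
Brip1: aatgtgcgGAACTTGTCCcagtcttt
Fanca: gtgtggtcAAGCATGCTCctagccaa
Fancg: ctcctcctAAACTAGCCTcaacactc

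An E2F motif (TTTGGCGC, TTTCCCGC, TTTGCCGC or TTTCGCGC on either strand), the letters read by the factors that switch on S phase genes, stood in windows of 5 of the 30 genes (16.7%), those of Bard1, Brca2, Fancg, Rad51c and Rmi1, against 2.60% of all 27025 genes with a window. A CCAAT box stood in windows of 18 of the 30 genes, against 41.1% of all, and the cell cycle motif CHR (TTTGAA or TTCGAA) in those of 4 genes (13.3%) against 21.7%. Both were searched on either strand, and a match of one motif may overlap one of another. These shares are descriptions of letters in a window and say nothing about binding. The E2F windows of the 5 genes are shown on the strand of the gene with the motif in capitals, which reads as its reverse complement in Brca2 and in the upstream match of Rad51c. The matches of Rad51c lie in windows of different starts. They lie at chr1:71103166-71103189 (Bard1, minus strand), chr5:150522445-150522468 (Brca2, plus strand), chr4:43010338-43010361 (Fancg, minus strand), chr11:87404944-87404967 and chr11:87404480-87404503 (Rad51c, minus strand) and chr13:58402615-58402638 (Rmi1, plus strand).
Bard1: ccgctcagTTTCCCGCtcaggaag
Brca2: aggccacaGCGGGAAAcagacaca
Fancg: cttttcagTTTCCCGCggaaccgt
Rad51c, upstream: ccgcgaggGCGGGAAAagcaaggg
Rad51c, downstream: tccagcgcTTTCGCGCctcttgct
Rmi1: cgagggagTTTGGCGCgattggag

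RNA of all 40 genes was detected at 0 h, while protein was not measured. The levels are summed over all transcripts of a gene, coding or not. At 0 h the median of the 40 genes was 5.35 TPM (a level corrected for transcript length), with 11 genes over 10 TPM and 19 under 5 TPM. The highest was Rpa3, the small subunit of the RPA complex, at 39.0, 41.9 and 31.4 TPM in the libraries of the first, the second and the third generation. Rpa1, the large subunit that grips the single strand, followed at 21.7, 37.7 and 43.6 TPM, and Rpa2 stood lower at 13.8, 14.8 and 25.9 TPM. The core complex gene Fancc, the translocase gene Rad54l, the nuclease genes Mre11a and Exo1, Rad50, Mus81 and the Fanconi ligase gene Fancl made up the rest of those between 16.6 and 33.1 TPM, and Brca2 closed the group over 10 TPM at 10.9 ± 1.64 TPM (SD over the 3 libraries at 0 h).

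At the other end stood Bard1, the obligate partner of BRCA1, at 0.380, 0.490 and 0.251 TPM, below Brca1 itself at 3.72, 9.20 and 7.80 TPM. The core complex gene Fancf stood at 0.671 ± 0.0231 TPM and the end-trimming nuclease and helicase gene Dna2 at 1.44 ± 0.0685 TPM. Of the 39 neighbouring pairs in this order, 36 overlapped in their 0 h ranges, so that the order within the list is resolved only in broad steps, and the separated pairs were Fancl over Brca2, Dna2 over Fancf and Fancf over Bard1.

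**Figure D1:**
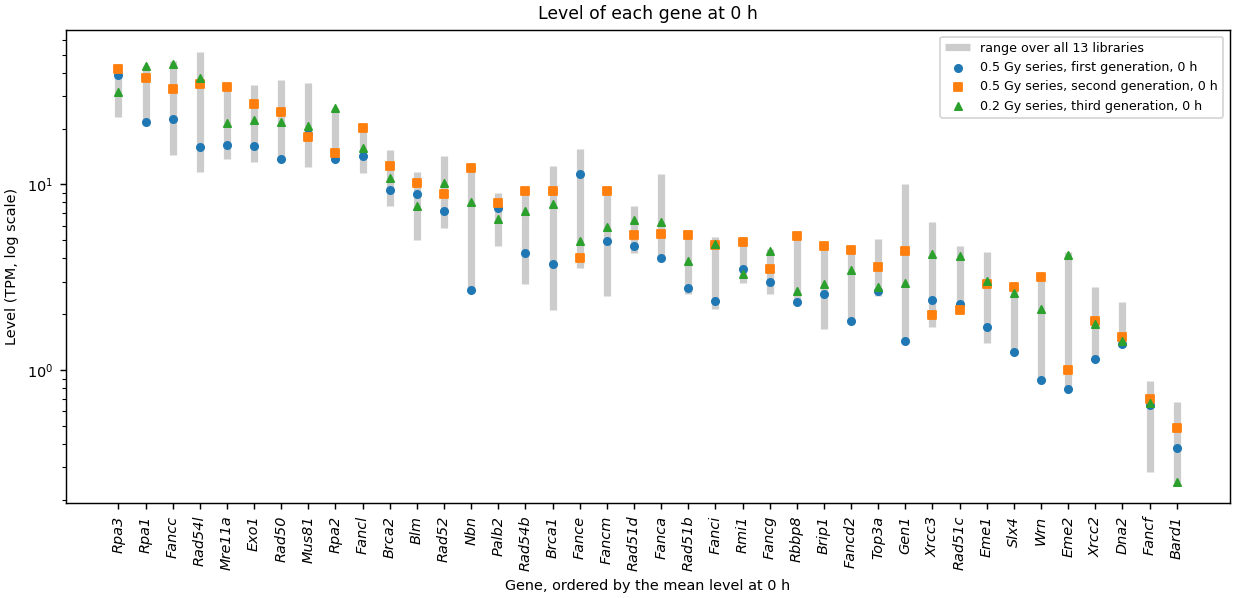
Level of each of the 40 genes at 0 h in TPM on a log axis, ordered by the mean of the 3 libraries at 0 h (points, 1 per library); grey bars span the range over all 13 libraries. The levels run from 37.5 TPM for Rpa3 down to 0.374 TPM for Bard1, and most neighbours overlap.

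Counts were ample for most of the list: 37 of the 40 genes had at least 100 estimated reads in every library, and the lowest value was 29 reads, for Fancf. The transcripts behind the counts differed widely. For 16 genes over 90% of the estimated reads were assigned to transcripts annotated as protein-coding, among them Brca1, Fancd2, Rpa1, Rpa2, Nbn and Rbbp8. For 8 genes the share was under 50%, namely Mus81 (2.89%), Fance (7.65%), Rad51c (17.3%), Slx4 (30.3%), Xrcc3 (34.8%), Dna2 (39.1%), Fanca (43.4%) and Rad52 (48.6%). The rest of their reads went to annotated decay substrates, retained introns and processed transcripts. Mus81, which encodes the catalytic subunit of a structure-selective nuclease, had 53.6% of its reads on transcripts marked for nonsense-mediated decay, and Rad51c, one of the strand-exchange paralogs, had 82.7%. With reads of 30 bases the split between transcripts of a gene is an estimate, and in Xrcc3 the protein-coding share ranged from near 0 to 88.5% between libraries.

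**Figure D2:**
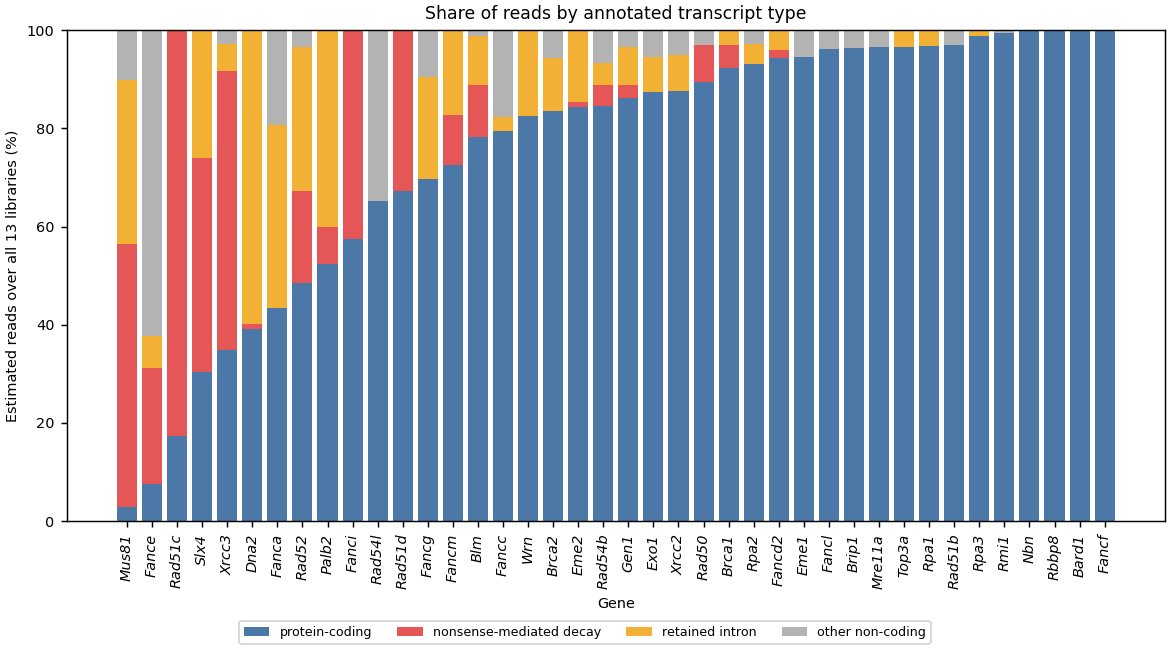
Share of each gene's estimated reads over all 13 libraries (%, stacked bars) by annotated transcript type, ordered by the protein-coding share. It rises from 2.89% in Mus81 to the whole of the reads in Nbn, Rbbp8, Bard1 and Fancf.

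Some of the 40 genes share sequence with neighbours or copies. Of the 30-base windows of its transcripts, Eme2, the gene of an alternative partner of MUS81, shared 50.4% with other genes, mostly the overlapping Spsb3, Rad54b shared 35.0% with Fsbp and Rmi1 29.7%, mostly with Gm20775. Fancc (17.3%), Fanci (14.3%), Rad54l (14.1%), Rpa3 (13.6%) and Fancf (13.5%) followed, and values of these genes are uncertain to that extent.

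The summed level of the 40 genes ran over the 13 libraries from 1314 to 1669 CPM, and at 0.5 Gy it was 1314 to 1627 CPM at 0 and 1 h and 1418 to 1648 CPM from 2.5 h on. The ratio of the highest to the lowest library had a median of 2.04 over the genes, lay under 2 in 20 genes and under 3 in 35. Fance varied most, with a ratio of 4.74, and Fancg, a scaffold of the core complex, least, with 1.41. By role, the single-strand binding genes summed to 318 to 418 CPM, the strand-exchange paralogs to 71.5 to 111 CPM and the core complex genes to 99.3 to 140 CPM over all libraries.

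**Figure D3:**
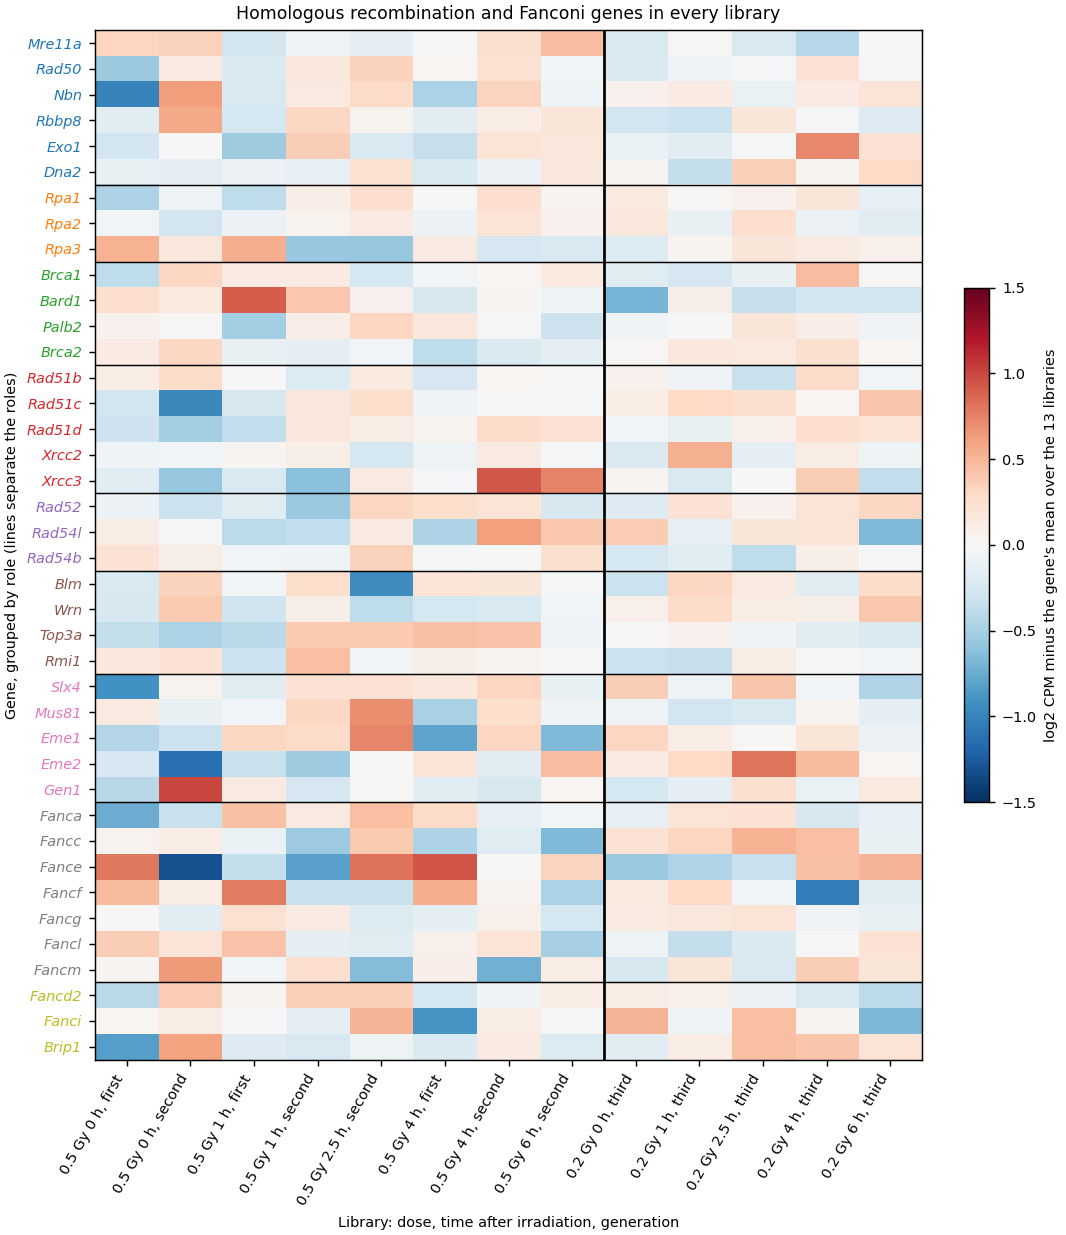
Each gene's log2 CPM minus its mean over the 13 libraries (colour), with genes in rows by role and libraries in columns by dose, time and generation. No role forms a block of late libraries that differs from the early ones, and the deepest colours are single libraries such as the second-generation 0 h library in Fance and Gen1.

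The first question was whether any of the genes changed at a single time after 0.5 Gy. Against 0 h none of the 40 genes was called at 1 h (background 0.0% of 28468 genes), at 2.5 h (0.0%), at 4 h (0.00703%) or at 6 h (0.00703%), where a call is an adjusted p under 0.05 and a log2 fold change over 1 in size, in edgeR's quasi-likelihood test. The count over all genes was itself 0 to 2, with 2 libraries at most per time. At an unadjusted p under 0.05 there were 0 genes at 1 h (background 3.96%) and 0 at 6 h (5.94%), and 1 gene each at 2.5 h (5.59%) and 4 h (5.78%). The gene at 2.5 h was Blm, the helicase mutated in Bloom syndrome, at 16.6 CPM in that single library against 27.3 and 40.4 CPM at 0 h. At 4 and 6 h of 0.5 Gy Blm stood at 31.4 to 36.6 CPM, and in the 2.5 h library of 0.2 Gy at 34.9 CPM. The gene at 4 h was Top3a, the topoisomerase that works with BLM, at 27.2 and 27.1 CPM against 15.7 and 14.5 CPM at 0 h. Top3a already stood at 26.3 CPM in the second-generation library at 1 h, but at 15.1 CPM in the first-generation one.

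Over the 40 genes the median log2 change took the values -0.03, 0.21, -0.01 and -0.03 in the order of the times, against 0.01, -0.04, 0.00 and 0.00 over all genes tested. The value at 2.5 h rests on 1 library and was -0.15 when only reads on protein-coding transcripts were counted.

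The late libraries of 0.5 Gy (2.5, 4 and 6 h, 4 libraries) were then set against the early ones (0 and 1 h, 4 libraries). None of the 40 genes was called (background 0.151% of 22588 genes), and the smallest adjusted p of the list was 0.381 in edgeR. At an unadjusted p under 0.05, 2 genes were higher (background 4.74%) and 0 lower (4.30%). The median change of the list was 0.02 against -0.02 over all genes, and 33 of the 40 genes had a 95% interval within 1 of 0 on the log2 scale, as did 47.7% of all genes. The 7 others were Xrcc3, Eme2, Bard1, Fancm, Fance, Gen1 and Fancf.

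Xrcc3 (chr12:111803192-111813873), a paralog that acts late in strand exchange, was nearest to a call. In the early libraries of 0.5 Gy it stood at 10.1 and 7.73 CPM (0 h) and 9.77 and 7.42 CPM (1 h), and in the late ones at 12.5 CPM (2.5 h), 11.2 and 21.8 CPM (4 h) and 19.1 CPM (6 h). All 4 late libraries lay above all 4 early ones, with the 2 highest from the second generation. The log2 fold change was 0.86 ± 0.27 (SE, 95% interval 0.28 to 1.44), with an edgeR adjusted p of 0.381. The same gene was 11.7 and 9.78 CPM early, 11.4 CPM at 2.5 h and 14.8 and 8.86 CPM late at 0.2 Gy, where late and early overlapped.

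Eme2 (chr17:24888486-24895087) was 9.05 and 4.96 CPM (0 h) and 8.55 and 7.42 CPM (1 h) in the early libraries of 0.5 Gy, and 10.8 CPM (2.5 h), 12.3 and 9.57 CPM (4 h) and 14.9 CPM (6 h) in the late ones. Its late libraries also lay above all early ones, at a log2 fold change of 0.65 ± 0.27 (SE) and an edgeR adjusted p of 0.501. Its sequence is shared with Spsb3 as given above. Bard1 was the only gene of the list whose late libraries all lay below the early ones, at 7.73 CPM (2.5 h), 6.26 and 7.60 CPM (4 h) and 7.04 CPM (6 h) against 8.81, 8.19, 13.9 and 9.73 CPM at 0 and 1 h, with a log2 change of -0.52 ± 0.26 (SE). Such separation was seen upwards in 3.18% and downwards in 2.04% of all genes, against 2 and 1 of the 40 here.

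Rad51d, another of the paralogs, was 29.2 ± 6.33 CPM early and 38.3 ± 2.69 CPM late (SD, 4 libraries each), a log2 change of 0.38. The groups overlapped through the second-generation library at 1 h (38.4 CPM). Brca2, a mediator of strand exchange at the break, was 103 ± 15.4 CPM early and 86.9 ± 8.57 CPM late, and Brca1 was 38.6 ± 7.25 and 36.2 ± 4.14 CPM. The resection gene Exo1 was 39.1 ± 10.8 and 40.1 ± 7.63 CPM. These differences were within the spread of the libraries, with 95% intervals of -0.62 to 0.08 for Brca2, -0.52 to 0.30 for Brca1 and -0.46 to 0.49 for Exo1 on the log2 scale.

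At 0.2 Gy, 2 late libraries (4 and 6 h) were set against 2 early ones (0 and 1 h) in a fit that took its spread from 11 libraries of both doses. Of the 12 p53 target genes none was called in this fit (smallest edgeR adjusted p 0.0512), though 9 were higher at an unadjusted p under 0.05. None of the 40 genes was called either (background 0.0426% of 28162 genes), none had an unadjusted p under 0.05 (7.21%), and their smallest edgeR adjusted p was 0.721. The median change was 0.03 against -0.03 over all genes. The smallest p belonged to Exo1, at 38.3 and 36.7 CPM early, 40.4 CPM at 2.5 h and 67.5 and 47.8 CPM late, a log2 change of 0.59 ± 0.30 (SE). Without the 4 h library it was 0.31 ± 0.37. Brca1 followed with 32.6 and 30.9 CPM early against 51.0 and 37.4 CPM late, a change of 0.45 ± 0.25 that was 0.20 ± 0.31 without the 4 h library. In both genes the 4 h library was the highest, and the 6 h library also lay above the early ones. Most lists of cell markers moved in the same libraries, but of 16 oocyte genes 8 were higher and 8 lower (median 0.02). Of 24 cell cycle genes 22 were higher (median 0.15), with a summed level of 2759 and 2599 CPM early and 3156 and 3060 CPM late, of 15 granulosa genes 13 (median 0.51), of 11 genes of stroma and endothelium 9 (median 0.36) and of 15 genes of blood and immune cells 11 (median 0.40). Their part in the values of Exo1 and Brca1 was not tested.

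The third gene by p at 0.2 Gy was Fance, at 3.68 and 3.93 CPM early, 4.28 CPM at 2.5 h and 7.33 and 7.70 CPM late. With 2 libraries against 2, groups that did not overlap were common, upwards in 21.8% and downwards in 25.2% of all genes, and 13 and 4 of the 40 genes were of this kind.

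The response at the 2 doses was compared directly, as the difference of the 2 late-minus-early changes over the 4 and 6 h libraries. Such a difference cannot be told apart from one between the third generation and the others. Of the 12 p53 target genes none was called in this comparison (smallest edgeR adjusted p 0.542), and 2 were higher at an unadjusted p under 0.05. None of the 40 genes was called either (background 0.0320% of 28162 genes), none had an unadjusted p under 0.05 (8.13%), and their smallest edgeR adjusted p was 0.655. The median difference, 0.5 minus 0.2 Gy, was -0.07 against 0.05 over all genes. The 3 genes with the smallest p were Xrcc3, with a difference of 0.86 ± 0.47 (SE, 95% interval -0.15 to 1.87), Top3a with 0.68 ± 0.39 and Fancl with -0.57 ± 0.35. The difference of Xrcc3 was 0.53 without the 6 h library and 1.32 without the 4 h library of 0.2 Gy, and 1.68 ± 1.72 on protein-coding transcripts, and that of Top3a was 0.34 ± 0.46 with counts from length-scaled TPM. Top3a at 0.2 Gy was 19.9, 21.0, 19.4, 18.0 and 17.3 CPM over time, and Fancl, the ligase that monoubiquitinates FANCD2, was 29.4 and 24.1 CPM early and 30.7 and 35.7 CPM late at 0.2 Gy against 28.0 to 41.5 CPM early and 21.8 to 35.5 CPM at 4 and 6 h of 0.5 Gy. The intervals are wide, and for 14 of the 40 genes (14.0% of all genes) they excluded a 2-fold difference between the doses in either direction.

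The most precise comparison pooled the doses, with 5 libraries at 4 and 6 h against 6 at 0 and 1 h and the generation as a term. None of the 40 genes was called by fold and adjusted p (background 0.128% of 28162 genes) or by adjusted p alone (0.153%), and none had late libraries entirely above or below the early ones (0.629% and 0.266% of all genes). At an unadjusted p under 0.05, 4 genes were higher (background 3.78%) and 1 lower (3.41%). The median change was -0.00 against -0.02 over all genes, and 37 of the 40 intervals lay within 1 of 0 on the log2 scale, as did 48.0% of all genes. The exceptions were Fance, Xrcc3 and Fancf.

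**Figure D4:**
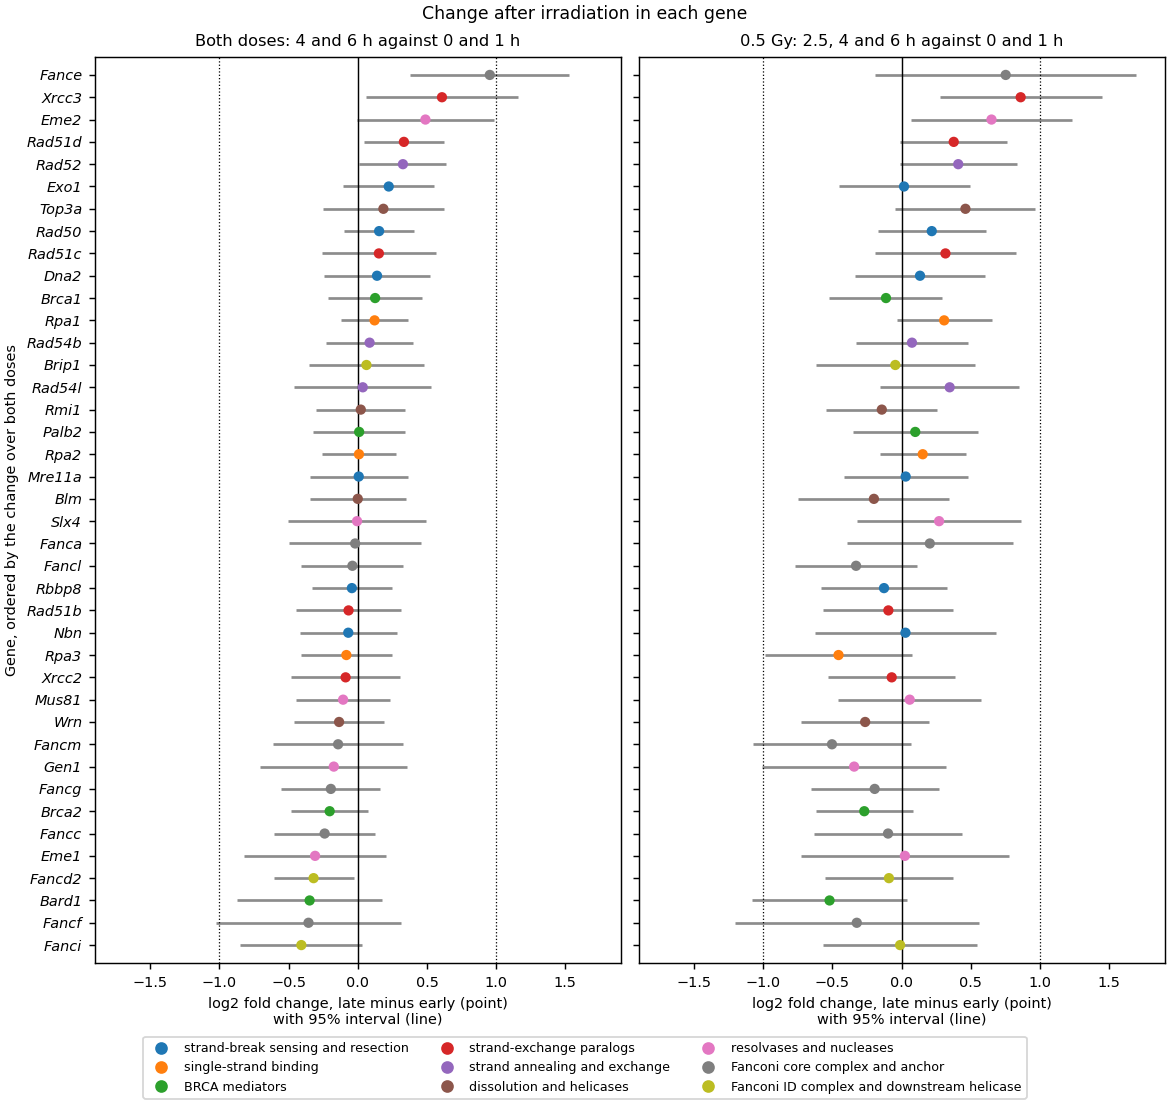
log2 fold change of each gene (points, coloured by role) with its 95% interval (lines) for both doses at 4 and 6 h against 0 and 1 h (left) and for 0.5 Gy at 2.5, 4 and 6 h against 0 and 1 h (right); dotted lines mark 1 and -1. Most intervals cross 0, and Fance (0.95) and Xrcc3 (0.86) lie farthest out in the left and right panel.

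Fance (chr17:28313519-28326572), which encodes the core complex subunit that contacts FANCD2, had the smallest p. At 0.5 Gy the first generation gave 9.33, 4.19 and 10.3 CPM (0, 1 and 4 h), and the second gave 2.18, 3.07, 9.52, 5.36 and 6.77 CPM over all times, while at 0.2 Gy the early values were 3.68 and 3.93 CPM and the late ones 7.33 and 7.70 CPM. The libraries of the second and the third generation were higher at 4 and 6 h than at 0 and 1 h, whereas the first-generation library at 0 h was nearly as high as that at 4 h. The mean was 4.40 ± 2.52 CPM early and 7.50 ± 1.82 CPM late (SD), the log2 fold change 0.95 ± 0.27 (SE, 95% interval 0.38 to 1.53), the unadjusted p 0.00319 and the edgeR adjusted p 0.330. Counted on protein-coding transcripts alone, which held 7.65% of its reads, the change was 0.27 ± 0.64. With DESeq2 the adjusted p was 0.0126 at a log2 fold change of 0.96, under the threshold for p but not for fold.

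Of the other genes that were higher, Rad51d was 30.3 ± 5.22 CPM early and 39.3 ± 2.35 CPM late (SD), a log2 fold change of 0.33 ± 0.14 with an edgeR adjusted p of 0.619, and on protein-coding transcripts alone 0.06 ± 0.17. Rad52, whose product anneals single strands, was 26.0, 24.3 and 33.1 CPM (0, 1 and 4 h) in the first generation and 22.1, 18.8, 34.5, 31.8 and 23.4 CPM over all times in the second, and 24.2, 32.0, 29.0, 31.6 and 34.3 CPM over the times of 0.2 Gy. The 6 h library of 0.5 Gy thus lay among the early ones, and the change was 0.33 ± 0.15. Xrcc3 changed by 0.61 ± 0.26 and Eme2 by 0.49 ± 0.23 in this comparison, the latter by 0.32 without the 6 h library of 0.5 Gy.

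Downwards, Fancd2, one side of the clamp that the Fanconi pathway ubiquitinates, was 26.6, 36.3 and 29.5 CPM (0, 1 and 4 h) in the first generation and 45.9, 45.3, 45.2, 33.8 and 38.2 CPM over all times in the second. At 0.2 Gy it went from 38.2 and 37.2 CPM through 33.2 CPM at 2.5 h to 30.2 and 26.9 CPM. Over both doses its log2 change was -0.32 ± 0.13 (SE) with an edgeR adjusted p of 0.630. Its partner in the clamp, Fanci, was 24.4 ± 4.29 CPM early and 19.6 ± 5.76 CPM late (SD), with a change of -0.41 ± 0.20 that was -0.72 ± 0.25 on protein-coding transcripts and -0.15 ± 0.23 with counts from length-scaled TPM. The helicase gene of the same branch, Brip1, did not follow them and had a change of 0.06. Brca2 (-0.20 ± 0.13), Bard1 (-0.35 ± 0.24) and Fancc (-0.24 ± 0.17) completed the 5 lower genes with the smallest p, and their intervals included 0. Without the second-generation library at 0 h, Brca2 was -0.10 and Fancc -0.12, and without the first-generation library at 4 h Bard1 was -0.19 and Fanci -0.26.

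**Figure D5:**
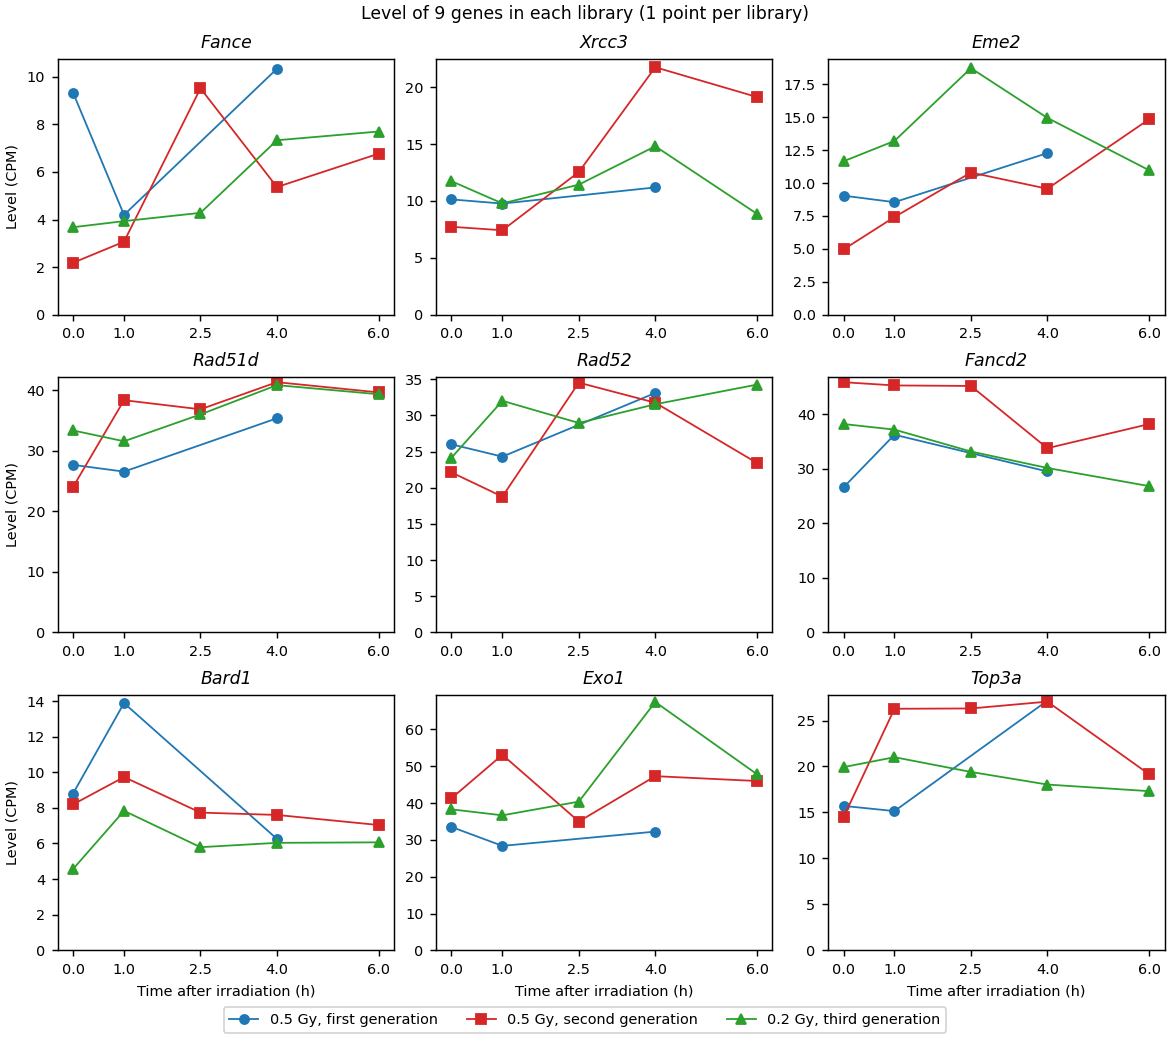
Level in CPM of 9 of the genes in each library (points, 1 per library) against time after irradiation in h, with lines joining the libraries of a generation and dose. Fance and Xrcc3 are highest at 2.5 h or later at 0.5 Gy, and Fancd2 is lower at 4 h than at 1 h in each generation.

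By role, the counts over both doses were as follows. Of the 5 strand-exchange paralogs, 2 were higher at an unadjusted p under 0.05 (Rad51d and Xrcc3, against 3.78% of all genes) and 3 were not separated from 0, with a median change of 0.15. The 6 resection genes had a median of 0.07 and a range of -0.07 to 0.22, the 3 RPA genes a range of -0.08 to 0.12 and the 4 BRCA mediators a range of -0.35 to 0.12. The 7 core complex genes had a median of -0.14, with 6 of 7 below 0 and Fance alone above. The 5 resolvases and nucleases ranged from -0.31 (Eme1, the main partner of MUS81) to 0.49 (Eme2). No gene of any role was called.

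The second generation was also set against the first at 0.5 Gy, to see how far the libraries of a time differ by their origin. None of the 40 genes was called (background 0.119% of 28468 genes), whereas 5 were higher and 2 lower at an unadjusted p under 0.05 (5.21% and 4.14% of all genes). Of the 6 resection genes, 4 were among the higher ones: Nbn, the sensor subunit of the MRE11 complex, at 67.1 ± 11.7 against 35.7 ± 9.12 CPM (SD, 3 libraries each), with a log2 difference of 0.94 ± 0.26 (SE) and an edgeR adjusted p of 0.359, and Exo1, Rbbp8 and Rad50 by 0.60, 0.54 and 0.43. Rpa1 was higher by 0.39, and the 2 lower genes, Rpa3 and Fance, had differences of -0.60 and -1.14. The median of the list was 0.15 against -0.00 over all genes, and some other lists moved with it. The granulosa list (6 of 15 genes higher, median -0.14) and the list of stroma and endothelium (5 of 11 higher, median -0.09) did not. Of 24 cell cycle genes 8 were higher at the same threshold (median 0.29), as were 5 of 15 genes of blood and immune cells (median 0.81) and 2 of 16 oocyte genes (median 0.22). The part of these lists in the values of the resection genes was not tested.

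Beyond the 40 genes, a list of 38 partners of the pathway was tested in the same fits. None was called over both doses (0.128% of all genes), where 3 were higher and 0 lower at an unadjusted p under 0.05 (3.78% and 3.41% of all genes), and the median was -0.01. The smallest p upwards was that of Wdr48, a cofactor of the deubiquitinase USP1, with 0.33 ± 0.11 (SE, edgeR adjusted p 0.498), and downwards that of the helicase gene Helq with -0.26 ± 0.14 (adjusted p 0.749).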

How the data were processed

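RNA from oocytes of pooled mouse ovaries was sequenced in 13 libraries. The authors quantified reads of 30 bases with Salmon against the mouse transcriptome (GRCm38) and deposited estimated counts and TPM per transcript. The labels call the reads paired-end and the series text single-end. A counting strand was not given in the sources used here, so that overlapping antisense genes cannot be told apart. The deposited normalised table and the authors' DESeq2 comparisons (fold changes and adjusted p) were not used.

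Here estimated counts were summed per gene over GENCODE vM21 (130740 transcripts, of which 402 had no gene), rounded, and tested with edgeR 4.0.16 (R 4.3.3; TMM, filterByExpr, robust quasi-likelihood test, Benjamini-Hochberg adjustment over all genes tested). Genes were called where the adjusted p was under 0.05 and the log2 fold change exceeded 1 in size. CPM are TMM-scaled over all 13 libraries, and levels of different genes are compared in TPM. All 40 genes passed the filter on low counts in each comparison. Single libraries (2.5 and 6 h of 0.5 Gy, and each of 0.2 Gy) took their spread from the others. Fits were tested on simulated counts.

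The genes of the list, the partner, resection-brake, marker and target lists and their tests were chosen with earlier results of these data known. Values are given for the 5 genes with the smallest p in each direction over both doses, the 3 with the smallest p in the other late-against-early comparisons, the genes with the highest and lowest level, and the partners and brakes with the smallest p in each direction. Others were named after their values were seen. Alternatives were other scalings, filters, transcripts and tools (DESeq2 1.42.0, limma 3.58.1) and leaving out each library. One listed brake, Shld3, was not analysed here. 1 listed partner is not reported here.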

Additional observations from a re-analysis of the deposited data

How the results depend on the processing

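The count of genes of the list called by fold and adjusted p was 0 in every comparison under every alternative that was run, and 0 to 0 when each library was left out in turn. By adjusted p alone it was also 0 throughout, including each left-out library (0 to 0), except over both doses with DESeq2, where it was 1 (Fance), and between generations, where it was 1 with no filter on low counts and 1 with DESeq2 (Nbn in both, adjusted p 0.013 and 0.043). DESeq2 called more of all genes, 123 against 34 at 0.5 Gy and 176 against 36 over both doses. No gene chosen for its small p reversed its direction, in the comparison it was chosen in, under an alternative that was run.

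The numbers of first and second generation were not shown to pair the libraries, since the correlation of their deviations was 0.125, 0.0763 and 0.108 for 0 with 1 h, 0 with 4 h and 1 with 4 h. With the generation as a replicate block the late against early comparison at 0.5 Gy called 20 genes in place of 34 and still 0 of the 40, and without it the comparison over both doses called 44 in place of 36 and 0 of the 40. At each time of 0.5 Gy, at 0.2 Gy and for the difference between doses the block likewise left 0 of the 40 called. Depth limits the low genes: Fancf had as few as 29 reads and Fance 33. Without the 4 h replicate 2 at 0.5 Gy, Xrcc3 was 0.69 in place of 0.86.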

Other observations

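Of 9 genes that hold back resection, and so favour end joining over recombination, none was called in any comparison. Over both doses 0 had an unadjusted p under 0.05 (3.78% of all genes higher and 3.41% lower), with a median log2 change of 0.07 against -0.02 over all genes. Trp53bp1, which encodes the chromatin reader 53BP1, changed by 0.24 ± 0.13 (SE, edgeR adjusted p 0.749) and Helb, whose product limits resection, by -0.45 ± 0.21 (adjusted p 0.702), the smallest p in each direction. At 0.5 Gy, Rif1, a partner of 53BP1, had a log2 change of -0.35 ± 0.17 and at 0.2 Gy one of 0.32 ± 0.23, and the difference between doses over the 4 and 6 h libraries was -0.67 ± 0.29 (unadjusted p 0.0356, adjusted p 0.596).

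At 0.5 Gy, 1 of the 38 partners was higher and 2 lower from early to late at an unadjusted p under 0.05 (4.74% and 4.30% of all genes), and none was called. Ube2t, the conjugating enzyme of FANCL, had a log2 change of -0.53 ± 0.15 (SE, unadjusted p 0.00345, edgeR adjusted p 0.304) and Usp1, which removes the same ubiquitin, one of -0.53 ± 0.21 (adjusted p 0.483), while Wdr48, the cofactor of USP1, was the higher one at 0.40 ± 0.17 (adjusted p 0.514). At 0.2 Gy Ube2t and Usp1 were 0.27 ± 0.19 and 0.44 ± 0.27, and the difference between doses was -0.84 ± 0.24 for Ube2t (adjusted p 0.509) and -1.06 ± 0.34 for Usp1 (adjusted p 0.542). Parpbp, which restrains recombination, had the largest change at 0.2 Gy among the partners (1.13 ± 0.31, adjusted p 0.471) and -0.26 ± 0.21 at 0.5 Gy, with a difference of -1.39 ± 0.39 (adjusted p 0.508). Cell marker lists moved the same way in the difference between doses, with 20 of 24 cell cycle genes lower (median -0.29), 12 of 15 granulosa genes (median -0.38) and 11 of 11 genes of stroma and endothelium (median -0.36). Lower too were 11 of 16 oocyte genes (median -0.17) and 10 of 15 genes of blood and immune cells (median -0.14). The part of all these lists in the values of the partners was not tested. Rif1, Ube2t, Usp1 and Parpbp were named after their values were seen.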
